A study of Mus musculus with 18 samples.

Results

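The expression of 10 CXC chemokine genes, *Cxcl1*, *Cxcl2*, *Cxcl3*, *Cxcl5*, *Cxcl9*, *Cxcl10*, *Cxcl12*, *Cxcl13*, *Cxcl14* and *Cxcl16*, was followed in mouse fibroblasts from heart, kidney and tail, in culture and after transplantation. The genes were taken by name, with earlier results of these data known, and each matched 1 row of a table of 38924 Ensembl genes. A filter on low counts left 16577 genes for testing, and 9 of the 10 chemokine genes were among them. *Cxcl13* was not.

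CXC chemokines are small secreted proteins that bind receptors on leukocytes and other cells and direct their migration. Cxcl1, Cxcl2, Cxcl3 and Cxcl5 carry a short Glu-Leu-Arg motif, bind Cxcr2 and attract neutrophils, and their genes are classical targets of NF-kB downstream of interleukin 1, tumour necrosis factor and Toll-like receptors. Cxcl9 and Cxcl10 are induced by interferons and attract T and NK cells through Cxcr3. Cxcl12 is made by stromal cells and retains Cxcr4-bearing cells, with Ackr3 as its scavenger receptor, Cxcl13 guides B cells through Cxcr5, Cxcl14 is made by epithelial and stromal cells of many organs, and Cxcl16 is a membrane-bound ligand of Cxcr6 that Adam10 and Adam17 release.

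All cells were labelled as coming from male *ROSA* mT/mG mice on a C57BL/6 background, aged 10 weeks, whose cells carry a ubiquitous membrane TdTomato reporter, and were grown for 10 days. The transplanted groups (heart HFs, kidney KFs and tail TFs) had spent 3 days on gelatin foam beneath the kidney capsule of syngeneic C57BL/6J recipients aged 10 to 11 weeks and were sorted as CD45-;TdTomato+ cells, and the cultured groups (HFc, KFc and TFc) were the replated remainder of the same preparations. The sources describe this sort for the transplanted cells only. A low-input library kit is named for cells isolated from the kidney capsule, and no kit is named for these cultured controls. The effects of transplantation, of recovery from the recipient kidney, of the sort and of any difference in library kit therefore cannot be told apart. Each of the 6 groups had 3 libraries with totals between 17927838 and 32245168 counts. The libraries of a group are called biological replicates, with no statement of whether each came from separate animals or cultures, so p-values measure the spread between these libraries.

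The genes lie on 4 chromosomes (GRCm38, positions from GENCODE). *Cxcl5* (ENSMUSG00000029371, 90759360 to 90761624), *Cxcl3* (ENSMUSG00000029379, 90786103 to 90789600), *Cxcl1* (ENSMUSG00000029380, 90891241 to 90893115) and *Cxcl2* (ENSMUSG00000058427, 90903871 to 90905938) follow each other on the plus strand of chromosome 5. *Cxcl9* (ENSMUSG00000029417, 92321347 to 92328079) and *Cxcl10* (ENSMUSG00000034855, 92346638 to 92348889) lie further along the same chromosome on the minus strand, and *Cxcl13* (ENSMUSG00000023078, 95956951 to 95961068) on the plus strand. *Cxcl12* (ENSMUSG00000061353) lies on chromosome 6 from 117168535 to 117181367 (plus), *Cxcl14* (ENSMUSG00000021508) on chromosome 13 from 56288643 to 56296551 (minus) and *Cxcl16* (ENSMUSG00000018920) on chromosome 11 from 70453983 to 70459984 (minus). *Cxcl2* and *Cxcl3* share 101 windows of 75 bases, the read length, out of 2209 and 3637 in their transcripts, so reads there could be assigned to either gene, whereas *Cxcl10* overlaps *Art3* and *Cxcl16* overlaps *Zmynd15* only on the opposite strand, in stranded libraries.

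The promoters of *Cxcl1*, *Cxcl2*, *Cxcl3* and *Cxcl10* are shown because they hold matches to an NF-kB site form. No RefSeq promoter sequence was at hand for *Cxcl5*, the other neutrophil-attracting gene, or for *Cxcl16*, so neither was searched. The sequences are the 250 bases before the RefSeq start (GRCm38.p6), written along the strand of the gene: chr5:90890995-90891244 (plus) for *Cxcl1*, chr5:90903649-90903898 (plus) for *Cxcl2*, chr5:90785851-90786100 (plus) for *Cxcl3* and chr5:92348890-92349139 (minus) for *Cxcl10*. Capitals mark matches, on either strand, to the NF-kB form spelled GGGNNNTTCC and to an interferon response core spelled GAAANNGAAA.
Cxcl1: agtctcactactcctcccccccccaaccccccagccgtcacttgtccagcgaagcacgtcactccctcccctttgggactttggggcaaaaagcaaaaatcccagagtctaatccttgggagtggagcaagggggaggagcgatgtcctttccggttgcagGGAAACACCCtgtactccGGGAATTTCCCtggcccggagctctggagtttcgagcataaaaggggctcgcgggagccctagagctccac
Cxcl2: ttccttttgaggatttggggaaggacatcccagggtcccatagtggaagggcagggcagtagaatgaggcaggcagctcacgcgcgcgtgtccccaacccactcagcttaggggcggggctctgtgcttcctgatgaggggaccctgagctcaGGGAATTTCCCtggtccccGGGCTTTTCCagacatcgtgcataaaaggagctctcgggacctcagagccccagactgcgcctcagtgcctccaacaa
Cxcl3: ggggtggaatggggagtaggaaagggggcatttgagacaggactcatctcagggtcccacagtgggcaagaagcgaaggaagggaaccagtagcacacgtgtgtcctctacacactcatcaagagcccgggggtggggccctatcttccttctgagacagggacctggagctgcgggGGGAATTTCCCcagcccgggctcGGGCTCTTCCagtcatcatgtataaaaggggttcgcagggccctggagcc
Cxcl10: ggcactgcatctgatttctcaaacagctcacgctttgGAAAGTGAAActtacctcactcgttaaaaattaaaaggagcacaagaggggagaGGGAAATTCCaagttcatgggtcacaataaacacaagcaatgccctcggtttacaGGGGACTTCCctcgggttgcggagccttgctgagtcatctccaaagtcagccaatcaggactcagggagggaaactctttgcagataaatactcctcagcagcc
The NF-kB form was found in 4 of 8 chemokine promoters for which RefSeq sequence was at hand (those shown), and in 4.65% of 32851 promoters of the same length. The same 10 bases, GGGAATTTCC, match on the given strand at bases 71 to 62 before the start of *Cxcl1*, 97 to 88 for *Cxcl2* and 73 to 64 for *Cxcl3*, each overlapped by a match on the other strand that lies 1 base nearer the start, and *Cxcl10* holds the NF-kB form at bases 159 to 150 and 104 to 95. The interferon core was found in *Cxcl10* and in *Cxcl14*, 2 of 8, and in 2.98% of all promoters, and the promoters of *Cxcl9*, *Cxcl12* and *Cxcl13* held neither form. Both forms were chosen with the genes known, and a match of letters is a description, not a site of binding.

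The library labelled KFs replicate 3 went against the male label of the donors. It held 1490 CPM (counts scaled to a common, TMM-adjusted library size) of *Xist*, against at most 0.404 in the other 17 libraries, and 0.722 CPM of 4 Y-linked genes, against 175 to 230 in the others. Its profile was also farther from its group, with a correlation of log values across genes of 0.937 and 0.938 to the other KFs libraries, against 0.983 between those. The KFs values of the chemokine genes are therefore also given without it. In the marker lists, all 8 fibroblast markers were above 3 counts in each library, with summed levels of 15300 to 21000 CPM in cultured libraries and 19700 to 125000 CPM in transplanted ones, the lowest being KFs replicate 3. By the calls defined below, 5 were higher and 2 lower in heart, 5 and 0 in kidney, and 4 and 1 in tail. Over all genes, 18.3% and 9.33%, 14.7% and 7.99%, and 11.0% and 5.53% were so called. In heart the summed level was 19900 to 21000 CPM in HFc and 75200 to 125000 CPM in HFs. *Thy1*, 1 of the 8 markers, went the other way, at 123 to 130 CPM in HFc and 24.9 to 44.5 CPM in HFs.

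Transplanted cells held more RNA of most CXC chemokine genes than cultured cells of the same organ. In heart fibroblasts 8 of the 9 tested members were called higher (adjusted p under 0.05 and a log2 fold change above 1), none was called lower, and *Cxcl3* was not called. In kidney fibroblasts 7 were higher, *Cxcl14* was lower and *Cxcl16* was not called, and in tail fibroblasts 8 were higher and *Cxcl14* was lower. Among all genes tested, 18.3% were called higher and 9.33% lower in HFs than in HFc, 14.7% and 7.99% in KFs against KFc, and 11.0% and 5.53% in TFs against TFc. The median log2 fold change of the tested members was 4.25 in heart, 4.49 in kidney and 3.72 in tail, beside 0.05, 0.09 and 0.00 over all genes tested. These counts and medians are descriptions, because the members were chosen with earlier results known and because 4 members entered the test through the group in which they were high. *Cxcl2*, *Cxcl9* and *Cxcl10* reached the filter level of 0.398 CPM in 0 of 9 cultured and 9 of 9 transplanted libraries. *Cxcl3* reached it in 2 of 9 cultured and 7 of 9 transplanted libraries. The fitted transplanted over cultured changes of *Cxcl2*, *Cxcl3*, *Cxcl9* and *Cxcl10* are likewise descriptions, given without p-values. Without KFs replicate 3 the kidney counts were again 7 higher, 1 lower and 1 not called, beside 23.2% of all genes called in either direction. In bulk RNA, fewer cells of a kind and less RNA per cell cannot be told apart.

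**Figure D1:**
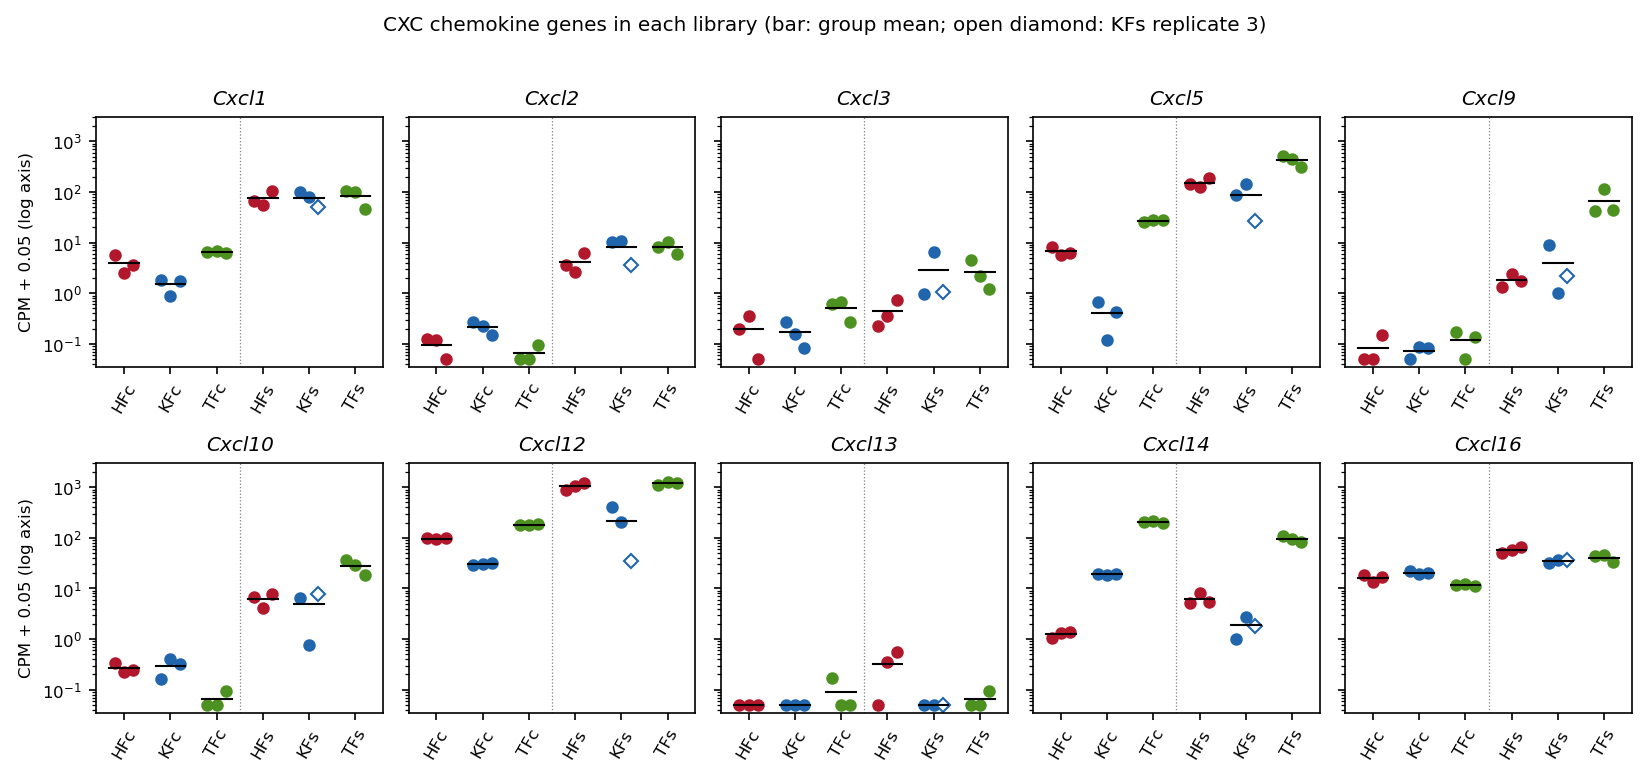
Level of each gene in each library, as CPM + 0.05 on a log axis, with cultured groups to the left and transplanted groups to the right of the dotted line, bars at group means and an open diamond for KFs replicate 3. The transplanted libraries of *Cxcl1* lie between 45.6 and 105 CPM, above all cultured ones, while *Cxcl14* is highest in TFc at 199 to 218 CPM.

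Among the ligands of Cxcr2, *Cxcl1*, a chemoattractant of neutrophils, was at 5.65, 2.50 and 3.64 CPM in HFc (replicates 1 to 3, the order used throughout) and at 66.9, 54.4 and 103 CPM in HFs. In KFc it was at 1.79, 0.838 and 1.73 CPM and in KFs at 101, 79.1 and 50.9 CPM. In TFc it was at 6.41, 6.67 and 6.09 CPM and in TFs at 105, 102 and 45.6 CPM. The cultured libraries were thus ordered by organ, TFc above HFc above KFc with no overlap, whereas the 3 transplanted groups overlapped. The log2 fold change was 4.25 ± 0.40 (SE) in heart, with an adjusted p of 5.18e-07, 5.72 ± 0.44 in kidney (1.11e-07) and 3.72 ± 0.39 in tail (3.57e-06). Without KFs replicate 3 the kidney value was 5.91 ± 0.41.

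*Cxcl5*, a further neutrophil attractant, was at 7.98, 5.75 and 6.19 CPM in HFc and at 143, 126 and 185 CPM in HFs. In KFc it was near the detection floor of 3 counts, with 17, 2 and 11 counts (0.634, 0.0698 and 0.366 CPM), and in KFs it was at 88.2, 141 and 26.5 CPM. In TFc it was at 25.1, 28.3 and 27.9 CPM and in TFs at 517, 438 and 308 CPM. TFs was the highest group with no overlap, KFc the lowest, and KFs replicate 3 reached only the level of cultured tail cells. Transplanted over cultured, the log2 fold change was 4.51 ± 0.48 in heart (adjusted p 1.55e-06), 7.90 ± 0.63 in kidney (1.44e-07) and 3.96 ± 0.46 in tail (8.91e-06), and 8.29 ± 0.38 in kidney without KFs replicate 3, with 8.56 without KFc replicate 1 and 7.29 without KFs replicate 2.

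*Cxcl2*, the classical inflammatory neutrophil chemokine, was close to absent from cultured cells. There were 2, 2 and 0 counts in HFc, 6, 5 and 3 in KFc and 0, 0 and 1 in TFc. In transplanted cells it was at 3.49, 2.56 and 6.23 CPM in HFs (58, 58 and 164 counts), 10.1, 10.5 and 3.53 CPM in KFs and 8.29, 10.2 and 5.77 CPM in TFs. Every transplanted library was above every cultured one. The pooled ratio was 82.5 in heart (95% counting interval 31.8 to 305) and 658 in tail (118 to 26000, against 1 count), these intervals covering counting error only. In kidney the log2 fold change was 5.57 ± 0.59, and 5.89 ± 0.48 without KFs replicate 3. These are descriptions without a p-value, since *Cxcl2* reached the filter level only in transplanted libraries.

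*Cxcl3*, closely related to *Cxcl2*, was low in each group and was called in kidney and tail. It had 4, 9 and 0 counts in HFc against 3, 7 and 18 in HFs, which overlapped. It had 6, 3 and 1 counts in KFc against 23, 198 and 25 in KFs, where replicate 2 was the high library at 6.35 CPM, and 19, 16 and 5 counts in TFc against 84, 48 and 27 in TFs. Fitted changes were 1.31 ± 1.01 in heart (not called), 4.49 ± 1.01 in kidney and 2.44 ± 0.88 in tail, on the log2 scale. These changes and calls are descriptions without a p-value. *Cxcl3* reached the filter level in 2 of 9 cultured and 7 of 9 transplanted libraries, so it entered the test through the transplanted ones. Without KFs replicate 3 the kidney value was 4.85 ± 0.96. The tail call was lost when any TFc library, TFs replicate 1 or TFs replicate 2 was left out. The tail value was 1.80 without TFs replicate 1. The kidney call was kept in each fit with 1 library left out, at 2.93 without KFs replicate 2.

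The interferon-induced ligands were lowest in culture and highest in transplanted tail cells. *Cxcl9*, which attracts activated T cells, had 0, 0 and 2 counts in HFc, 0, 1 and 1 in KFc and 4, 0 and 2 in TFc. In HFs it was at 1.26, 2.34 and 1.67 CPM (21, 53 and 44 counts), in KFs at 8.85, 0.962 and 2.12 CPM and in TFs at 41.7, 117 and 44.5 CPM. TFs lay above the other groups with no overlap, and within KFs replicate 1 was the high library. The pooled ratio was 69.5 in heart (95% counting interval 18.8 to 581) and 160 in kidney (43.8 to 1320), or 190 (52.2 to 1580) without KFs replicate 3. For TFs over TFc the fitted change was 9.77 ± 0.96 on the log2 scale. It is a description without a p-value, since *Cxcl9* reached the filter level only in transplanted libraries. Leaving out HFc replicate 3 moved the fitted heart value from 5.84 to 8.51, and leaving out KFs replicate 1 moved the kidney value from 7.12 to 5.75. The tail value lay between 9.12 and 10.50 under 16 alternatives.

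*Cxcl10*, whose promoter held both motif forms, had 8, 5 and 4 counts in HFc and 3, 10 and 8 in KFc, but 0, 0 and 1 in TFc. In HFs it was at 6.73, 4.01 and 7.86 CPM, in KFs at 6.51, 0.705 and 7.74 CPM and in TFs at 35.7, 29.2 and 18.2 CPM. TFs lay above the other transplanted groups with no overlap, and KFs replicate 2 stayed near the cultured level. In culture TFc lay below HFc and KFc with no overlap but was not called (HFc against TFc 3.71 ± 1.58, adjusted p 0.0724, and KFc against TFc 3.86 ± 1.53, 0.061), whereas DESeq2 called both (0.00969 and 0.00705), on a single count over TFc. The log2 fold change was 4.79 ± 0.74 in heart and 4.31 ± 0.72 in kidney, or 3.79 ± 0.73 without KFs replicate 3. These are descriptions without a p-value, since *Cxcl10* reached the filter level only in transplanted libraries. In tail the pooled ratio was 2220, with a counting interval of 398 to 87700 that rests on the single cultured count.

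*Cxcl12*, the stromal ligand of Cxcr4 and Ackr3, was the only member above 90 CPM in cultured heart cells. It was at 97.3, 94.8 and 99.2 CPM in HFc and at 867, 1050 and 1230 CPM in HFs. In KFc it was at 29.6, 30.5 and 31.9 CPM, and in KFs at 401, 202 and 34.6 CPM. In TFc it was at 177, 178 and 185 CPM and in TFs at 1130, 1260 and 1230 CPM. KFs replicate 3 was barely above the cultured kidney libraries, and the KFs libraries spanned the widest range of any group. On the log2 scale the change was 3.44 ± 0.53 in heart (adjusted p 5.53e-05), 2.79 ± 0.52 in kidney (3.88e-04) and 2.75 ± 0.51 in tail (6.31e-04), and 3.25 ± 0.20 in kidney without KFs replicate 3 but 1.95 without KFs replicate 1.

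*Cxcl13*, the B cell chemokine, was at or near 0. HFs had 0, 7 and 13 counts, TFc 4, 0 and 0, and TFs 0, 0 and 1, and no count was seen in HFc, KFc or KFs. With HFc set at 3 counts over the whole group, and not per library, the ratio of HFs to HFc was 7.85. HFs replicate 1 was at 0, and no test was made. The floor of 3 counts was 0.0890 to 0.180 CPM per library and covers counting error only.

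*Cxcl14*, a ligand of epithelial and stromal cells, was the member in which the 3 organs moved in different directions. It was at 0.984, 1.29 and 1.33 CPM in HFc and rose to 5.23, 8.07 and 5.43 CPM in HFs. In KFc it was at 19.2, 18.4 and 19.2 CPM and it fell to 0.970, 2.69 and 1.80 CPM in KFs. In TFc it was at 206, 218 and 199 CPM and it fell to 108, 94.9 and 81.6 CPM in TFs. None of these pairs of groups overlapped, and all but KFs and HFc among neighbouring levels were separate. The log2 fold change was 2.39 ± 0.27 in heart (adjusted p 2.41e-06), -3.35 ± 0.24 in kidney (5.88e-08) and -1.13 ± 0.20 in tail (4.19e-04), and -3.36 ± 0.26 in kidney without KFs replicate 3. The tail value lay just past the fold limit, between -1.24 and -1.04 under 16 alternatives, each of which called it.

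*Cxcl16*, the membrane-bound ligand, varied least. It was at 18.4, 13.6 and 17.1 CPM in HFc and at 51.1, 58.1 and 64.7 CPM in HFs. In KFc it was at 22.1, 19.4 and 20.0 CPM and in KFs at 32.3, 36.4 and 35.8 CPM. In TFc it was at 11.7, 12.3 and 11.0 CPM and in TFs at 43.0, 45.3 and 32.7 CPM. Each transplanted group was above its cultured group with no overlap. The log2 fold change was 1.83 ± 0.14 in heart (adjusted p 5.06e-08) and 1.79 ± 0.14 in tail (1.78e-07). In kidney it was 0.76 ± 0.13 (2.35e-04), past the p threshold but under the fold limit, and 0.70 ± 0.14 without KFs replicate 3.

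**Figure D2:**
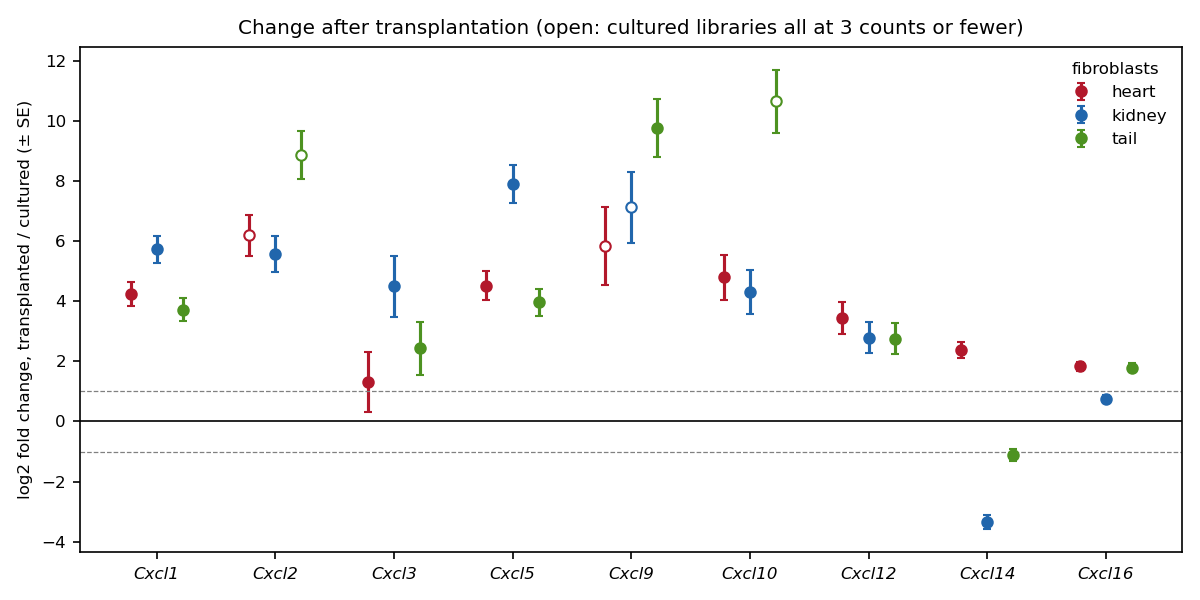
Fitted log2 fold change (transplanted over cultured, ± SE) of the 9 tested genes by organ, with dashed lines at the fold limit of 1 and -1. Open points mark genes whose cultured libraries held 3 counts or fewer each, for which the fitted value is no bound, and *Cxcl14* is above 0 in heart (2.39) and below it in kidney (-3.35) and tail (-1.13).

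The order of the genes within a group was compared per kilobase of exon. In HFc *Cxcl12* led at 11.9 ± 0.272 CPM per kb (SD, n = 3), followed by *Cxcl16* at 5.40 ± 0.819. In KFc *Cxcl14* led at 10.4 ± 0.251 and in TFc at 114 ± 5.36 CPM per kb. After transplantation *Cxcl12* led in HFs at 128 ± 22.2, ahead of *Cxcl5* at 81.1 ± 16.3 CPM per kb. In TFs *Cxcl5* led at 226 ± 56.5, ahead of *Cxcl12* at 148 ± 8.63 CPM per kb. In KFs *Cxcl5* (45.8 ± 30.8), *Cxcl1* (41.0 ± 13.3) and *Cxcl12* (26.0 ± 22.5 CPM per kb) overlapped, and the same order held without KFs replicate 3, at 61.6, 47.9 and 36.9. The leading gene thus differed between culture and transplant in kidney and tail and was *Cxcl12* in both states of the heart.

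In culture, *Cxcl14* and *Cxcl5* were called in each pair of organs. Between HFc and TFc, 3 of the 9 were called at an adjusted p under 0.05, beside 41.9% of all genes tested. *Cxcl14* was 173-fold lower in HFc (log2 -7.44 ± 0.28, adjusted p 3.65e-11), *Cxcl5* was 4.07-fold lower (-2.03 ± 0.44, 0.00174) and *Cxcl16* was 1.40-fold higher (0.48 ± 0.14, 0.00925). The *Cxcl16* call was lost without HFc replicate 1 (adjusted p 0.0535) and with scaling by library size alone (0.33, adjusted p 0.0806). *Cxcl12*, with 94.8 to 99.2 CPM in HFc and 177 to 185 CPM in TFc, did not overlap but was not called (-0.89 ± 0.49, adjusted p 0.157). Its error was shared with KFs, and without KFs replicate 3 in the fit it was -0.91 ± 0.18 with an adjusted p of 4.41e-04.

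Between KFc and TFc, 6 of the 9 were called, beside 36.4% of all genes. *Cxcl5* was 76.0-fold lower in KFc (-6.25 ± 0.62, adjusted p 1.71e-06, and -6.91 without KFc replicate 1), *Cxcl14* 11.0-fold lower (-3.46 ± 0.22, 1.80e-08), *Cxcl12* 5.86-fold lower (-2.55 ± 0.51, 0.00118) and *Cxcl1* 4.40-fold lower (-2.14 ± 0.42, 0.0011). *Cxcl16* was 1.76-fold higher (0.82 ± 0.14, adjusted p 2.48e-04). *Cxcl2* was called higher in KFc (adjusted p 0.0281) on 14 counts against 1, a pooled ratio of 13.4 (2.04 to 567), and lost the call without KFc replicate 1, KFc replicate 2, TFc replicate 1 or TFc replicate 2 (0.0587 to 0.111). Cultured kidney cells were thus the lowest of the 3 organs for *Cxcl1*, *Cxcl5* and *Cxcl12*, with no overlap, but not for *Cxcl14*, which was lowest in heart.

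Between HFc and KFc, 4 of the 9 were called, beside 29.2% of all genes. *Cxcl5* was 18.7-fold higher in HFc (4.22 ± 0.64, adjusted p 1.34e-04) and *Cxcl14* 15.8-fold lower (-3.98 ± 0.26, 2.38e-08). *Cxcl1* (1.43 ± 0.44, adjusted p 0.0212) and *Cxcl12* (1.66 ± 0.50, 0.0198) were higher in HFc. Without KFc replicate 1 the *Cxcl5* value was 4.88. The *Cxcl1* call was lost without HFc replicate 1 (0.119) or KFc replicate 2 (0.0921), and the *Cxcl12* call without any KFc library (0.0565 to 0.0637). Without KFs replicate 3 in the shared spread, *Cxcl12* was at 1.61 ± 0.18 (adjusted p 3.29e-06). *Cxcl16* was not called (-0.33), but was called without KFs replicate 3 in the shared spread (-0.38 ± 0.13, adjusted p 0.0345).

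After transplantation, the interferon-induced *Cxcl9* and *Cxcl10* were higher in tail cells than in heart or kidney cells. Between HFs and TFs, 6 of the 9 were called, beside 23.1% of all genes. Lower in HFs were *Cxcl9* (-5.25 ± 0.69, adjusted p 5.06e-05, and -4.61 without TFs replicate 2), *Cxcl14* (-3.92 ± 0.23, 1.60e-08), *Cxcl10* (-2.16 ± 0.56, 0.0109), *Cxcl3* (-2.67 ± 0.90, 0.0433) and *Cxcl5* (-1.48 ± 0.41, 0.0165), and *Cxcl16* was higher (0.52 ± 0.13, 0.00887). *Cxcl1* (-0.17, 95% interval -0.90 to 0.55), *Cxcl12* (-0.20, -1.22 to 0.82) and *Cxcl2* (-0.98, -1.92 to -0.03, adjusted p 0.131) were not called. *Cxcl2* was called without KFs replicate 3 in the shared spread (-0.96 ± 0.34, adjusted p 0.0422), which brought the number called to 7 (31.0% of all genes), and with scaling by library size alone (-1.19 ± 0.43, 0.0416). Under that scaling *Cxcl16* lost its call (0.31, adjusted p 0.104). With 1 library left out, *Cxcl3* lost its call without any HFs library or without TFs replicate 1 or 2, *Cxcl5* without HFs replicate 1, HFs replicate 2 or TFs replicate 1, and *Cxcl10* without HFs replicate 2 (adjusted p 0.0535 to 0.171). The number called fell to 3 at the lowest, without HFs replicate 2, beside 16.2% of all genes. The *Cxcl3* value was -2.04 without TFs replicate 1 and -3.33 without HFs replicate 3. Its call was also lost with a replicate block (-2.36, adjusted p 0.072) and with no filter (-2.65, 0.0507).

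Between KFs and TFs, 5 of the 9 were called, all lower in KFs, beside 29.1% of all genes in either direction. They were *Cxcl14* (-5.67 ± 0.26, adjusted p 8.24e-09), *Cxcl9* (-4.10 ± 0.64, 2.28e-04), *Cxcl12* (-2.51 ± 0.51, 0.00176), *Cxcl10* (-2.48 ± 0.57, 0.00409) and *Cxcl5* (-2.30 ± 0.42, 8.57e-04). Without KFs replicate 3 they were again called, at -5.64, -3.81, -2.0, -2.96 and -1.87, whereas without KFs replicate 1 *Cxcl9* was at -5.47 and *Cxcl12* at -3.35. In a fit of KFs and TFs alone, *Cxcl10* (-2.47 ± 0.78, adjusted p 0.106), *Cxcl5* (-2.30 ± 0.58, 0.0651) and *Cxcl12* (-2.50 ± 0.79, 0.104) were not called, and 7.47% of all genes were. *Cxcl1* (-0.13, 95% interval -0.86 to 0.59), *Cxcl2* (-0.01, -0.93 to 0.92) and *Cxcl16* (-0.21, -0.49 to 0.07) were not called, and without KFs replicate 3 they were at 0.10, 0.35 and -0.23, again not called. *Cxcl3* was also not called (0.10, 95% interval -1.62 to 1.81), at 0.50 without KFs replicate 3. Its value lay between -1.42 and 0.74 under 15 alternatives, none of which called it. For *Cxcl1*, the 3 organs thus overlapped after transplantation although KFc had been lower than TFc in culture.

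Between HFs and KFs, 4 of the 9 were called, beside 33.2% of all genes. *Cxcl12* (2.30 ± 0.50, adjusted p 0.00267), *Cxcl14* (1.75 ± 0.25, 9.90e-05) and *Cxcl16* (0.74 ± 0.13, 6.41e-04) were higher in HFs and *Cxcl3* was lower (-2.77 ± 0.90, 0.0271). Without KFs replicate 3 these were 1.81, 1.74, 0.77 and -3.14, all called (*Cxcl12* was at 3.14 without KFs replicate 1), and *Cxcl2* was then also called lower in HFs (-1.31 ± 0.37, adjusted p 0.0105), as it was without HFs replicate 3 (-1.41, 0.0491). *Cxcl5* was not called (0.82 ± 0.41, adjusted p 0.136), with 0.41 (0.199) without KFs replicate 3, but was called higher in HFs without KFs replicate 2 (1.41 ± 0.40, 0.017). The *Cxcl3* call was lost without HFs replicate 1, HFs replicate 2 or KFs replicate 2, and without the last its value was -1.24. This call was also lost with a replicate block (-2.24, adjusted p 0.0684). In a fit of HFs and KFs alone, *Cxcl3* (adjusted p 0.128), *Cxcl12* (0.115) and *Cxcl14* (0.0591) were not called, and 5.75% of all genes were.

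**Figure D3:**
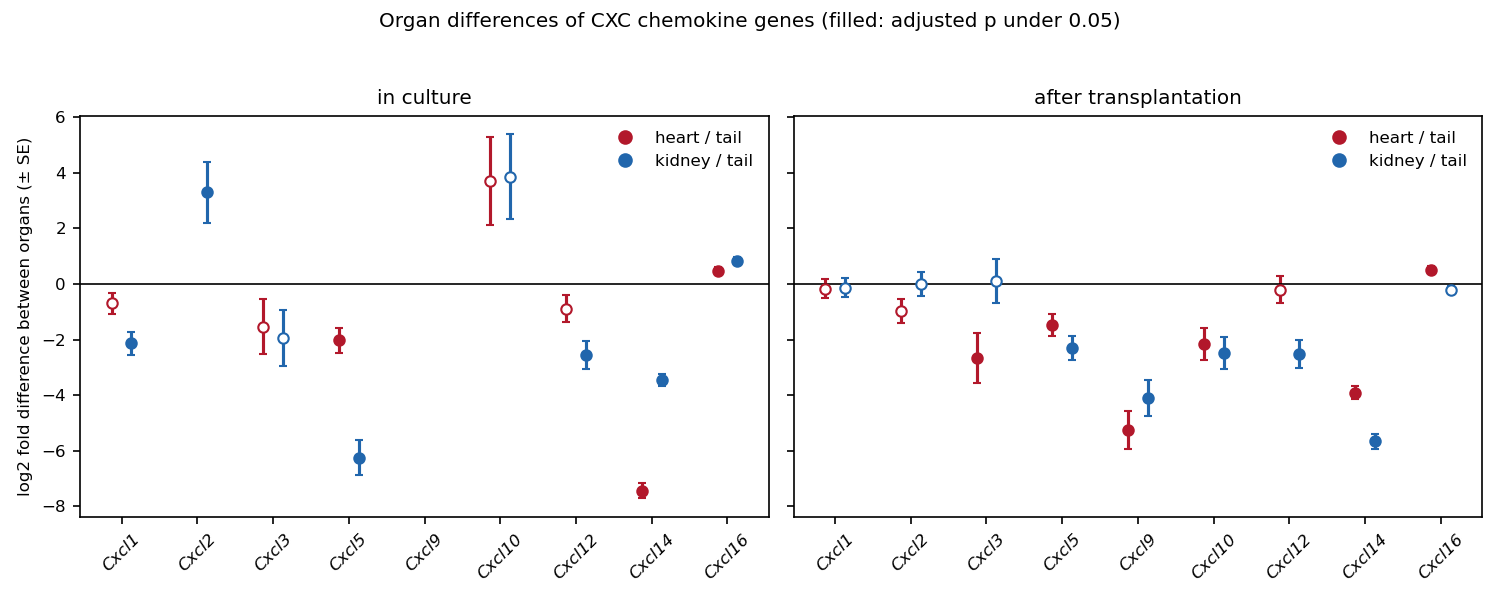
Fitted log2 difference (± SE) of heart against tail and kidney against tail, in culture and after transplantation, with filled points at an adjusted p under 0.05. *Cxcl9* and pairs with 4 counts or fewer in every library are left out of the culture panel, where the *Cxcl2* and *Cxcl10* values rest on 0, 0 and 1 counts in TFc, and *Cxcl10* is at -2.16 and -2.48 after transplantation.

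Whether the change on transplantation differed between organs was tested as an interaction, in which each value is the difference between 2 log2 fold changes. For heart against tail, 2 of the 9 were called, beside 22.8% of all genes. *Cxcl14* differed by 3.52 ± 0.33 (adjusted p 5.47e-06), having risen in heart and fallen in tail. *Cxcl10* was called with a smaller rise in heart. That call is a description without a p-value, since *Cxcl10* reached the filter level only in transplanted libraries. The fit rests on 1 count over TFc, and the call was lost without HFc replicate 1 or TFc replicate 1. The *Cxcl1* (0.53, 95% interval -0.57 to 1.62), *Cxcl5* (0.55, -0.71 to 1.81), *Cxcl12* (0.69, -0.76 to 2.14) and *Cxcl16* (0.04, -0.36 to 0.44) responses of heart and tail did not differ beyond their error. Without KFs replicate 3 in the shared spread, *Cxcl12* was called at 0.72 ± 0.25 (adjusted p 0.0338).

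For kidney against tail, 5 of the 9 were called, beside 11.1% of all genes. The rise was larger in kidney for *Cxcl5* (3.95 ± 0.76, adjusted p 0.00403) and *Cxcl1* (2.0 ± 0.54, 0.0278). For *Cxcl12*, which like these was lowest in KFc, the responses differed by 0.05 (95% interval -1.40 to 1.49, not called), a value that moved to 0.53 ± 0.26 (adjusted p 0.176) without KFs replicate 3 and to -0.79 ± 0.57 (0.389) without KFs replicate 1. The rise was smaller in kidney for *Cxcl16* (-1.03 ± 0.19, adjusted p 0.00297), and the fall of *Cxcl14* was larger in kidney (-2.22 ± 0.31, 4.05e-04). The rise of *Cxcl10* was also called smaller in kidney, again on the single TFc count and as a description without a p-value. The same 5 were called without KFs replicate 3, when 21.4% of all genes were called, with *Cxcl5* at 4.35, *Cxcl1* at 2.21, *Cxcl16* at -1.07 and *Cxcl14* at -2.21. *Cxcl1* lost its call without KFc replicate 2 or any TFc library (adjusted p 0.0544 to 0.0811). The *Cxcl10* call was lost without KFc replicate 2 or TFc replicate 1.

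For heart against kidney, 3 of the 9 were called, beside 26.2% of all genes. *Cxcl14* differed by 5.74 ± 0.36 (adjusted p 3.98e-07), the rise of *Cxcl16* was larger in heart (1.07 ± 0.19, 8.52e-04) and that of *Cxcl5* was larger in kidney (-3.40 ± 0.78, 0.00495). These were 5.77, 1.15 and -3.77 without KFs replicate 3, all called. *Cxcl1* was not called (-1.48 ± 0.55, adjusted p 0.0614) but was called without KFs replicate 3 (-1.64 ± 0.54, 0.0281), HFc replicate 2 (-1.73, 0.0406) or HFs replicate 3 (-1.72, 0.0418). *Cxcl14* was thus the one tested member called in each of the 3 interactions.

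The receptors of these ligands were measured in the same cells. Of 8 receptor and scavenger genes, 4 (*Cxcr2*, *Cxcr4*, *Cxcr6* and *Ackr3*) passed the filter, and *Cxcr1*, *Cxcr3*, *Cxcr5* and *Ackr1* did not. In heart 3 were called higher (*Cxcr2*, *Cxcr4* and *Ackr3*), in kidney *Cxcr2* was higher and *Ackr3* lower, and in tail none was called, beside 18.3%, 14.7% and 11.0% of all genes called higher and 9.33%, 7.99% and 5.53% called lower. *Cxcr4* overlapped between HFc (0.0491 to 0.271 CPM) and HFs (0.240 to 1.90 CPM), with 50 of the 66 HFs counts in 1 library. *Ackr3*, the scavenger of Cxcl12, was at 1.51 ± 0.364 CPM (SD, n = 3) in HFc and 14.9 ± 4.92 in HFs, at 40.6 ± 1.45 in KFc and 16.1 ± 6.60 in KFs, and at 16.7 ± 0.805 in TFc and 31.0 ± 10.3 in TFs. The fitted log2 change of *Ackr3* was 3.29 ± 0.34 in heart, -1.33 ± 0.29 in kidney (adjusted p 0.00148) and 0.89 ± 0.29 in tail (under the fold limit). Kidney calls without KFs replicate 3 were again *Cxcr2* (1.07 ± 0.19) and *Ackr3* (-1.08 ± 0.24), and *Ackr1* then passed the filter and was called higher in heart. *Cxcl12* rose in all 3 organs. *Cxcr2* was at 5.97 ± 1.03 CPM in HFc and 13.6 ± 1.14 in HFs, a log2 fold change of 1.18 ± 0.19 (adjusted p 6.94e-05).

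Among 5 other CXC ligands of the mouse, *Cxcl15*, *Pf4* and *Ppbp* were tested and *Cxcl11* and *Cxcl17* were too low. Only *Ppbp*, a platelet chemokine, was called, higher in heart and kidney and lower in tail, at mean levels of 0 to 3.46 CPM. For this paragraph, 18.3%, 14.7% and 11.0% of all genes were called higher in heart, kidney and tail. The shares called lower were 9.33%, 7.99% and 5.53%. Of the proteases, *Adam17*, which sheds Cxcl16, had a log2 fold change of 0.84 ± 0.09 in heart, 0.66 ± 0.09 in kidney and 1.13 ± 0.09 in tail, of which the last passed the fold limit. *Adam10* was at -0.68 ± 0.07, -0.56 ± 0.07 and -0.26 ± 0.07, each under the fold limit. *Dpp4*, which trims Cxcl10 and Cxcl12 at the amino terminus, was called higher in each organ, from at most 0.471 ± 0.160 CPM in culture to 1.55 to 2.06 CPM. Leaving out KFs replicate 3 gave kidney values of 0.69 for *Adam17*, -0.56 for *Adam10* and 2.30 for *Dpp4*, with the same calls.

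Some genes of the NF-kB pathway were called in the same comparisons. Of 10 listed and tested, 5 were called higher in heart, 4 in kidney (also without KFs replicate 3) and 8 in tail, beside 18.3%, 14.7% and 11.0% of all genes, and none was called lower. *Nfkbia*, which encodes the inhibitor IkB alpha and is itself induced by NF-kB, had a log2 fold change of 1.75 ± 0.19 in heart, 2.12 ± 0.19 in kidney and 2.93 ± 0.20 in tail. *Tnfaip3*, a feedback inhibitor of the pathway, had 1.50 ± 0.22, 2.55 ± 0.22 and 4.38 ± 0.24. Their kidney values were 2.13 and 2.2 when KFs replicate 3 was left out, both called. *Rela*, which encodes the p65 subunit, was not called in any organ (-0.70, -0.24 and -0.00). Upstream, 3 of 10 tested genes were higher in each organ (beside the same shares of all genes) and *Il17ra* was lower in heart (-1.19 ± 0.19), with *Tlr4* called lower in kidney (-1.07) without KFs replicate 3. The number higher is a description. *Il1a* and *Il1b* were at most at 0.0332 and 0.135 CPM in cultured libraries, under the filter level of 0.398 CPM. They could pass it only through transplanted libraries. *Il1r1*, the interleukin 1 receptor, was among the higher in each (2.29 ± 0.27, 2.26 ± 0.27, or 2.57 without KFs replicate 3, and 1.58 ± 0.26), while *Il17a* had no count in any library.

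Interferon response genes were also listed. Of 13 listed and 11 tested, 7 were called higher in heart, 7 in kidney (also without KFs replicate 3) and 9 in tail, and none was lower, beside 18.3%, 14.7% and 11.0% of all genes called higher. *Irf7* had a log2 fold change of 2.53 ± 0.43 in heart, 2.12 ± 0.44 in kidney and 4.67 ± 0.47 in tail. *Isg15* had 2.29 ± 0.57, 2.18 ± 0.57 and 5.46 ± 0.67. With KFs replicate 3 left out, the kidney values were 2.22 for *Irf7* and 2.28 for *Isg15*, and *Irf7* differed from tail by -2.42 (adjusted p 0.0137). By interaction, 7 of the 11 had a smaller change in heart than in tail, beside 22.8% of all genes called in either direction, and 6 a smaller one in kidney than in tail, beside 11.1% (8 of 11 and 21.4% without KFs replicate 3), including *Irf7* (-2.15 ± 0.60, adjusted p 0.0177, and -2.56 ± 0.61, 0.0144), whereas *Irf1*, an early interferon gamma target, was nearly equal in the 3 (2.49, 2.48 and 2.41). *Ifng* reached at most a group mean of 0.0253 CPM and *Ifnb1* had no count in any library.

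**Figure D4:**
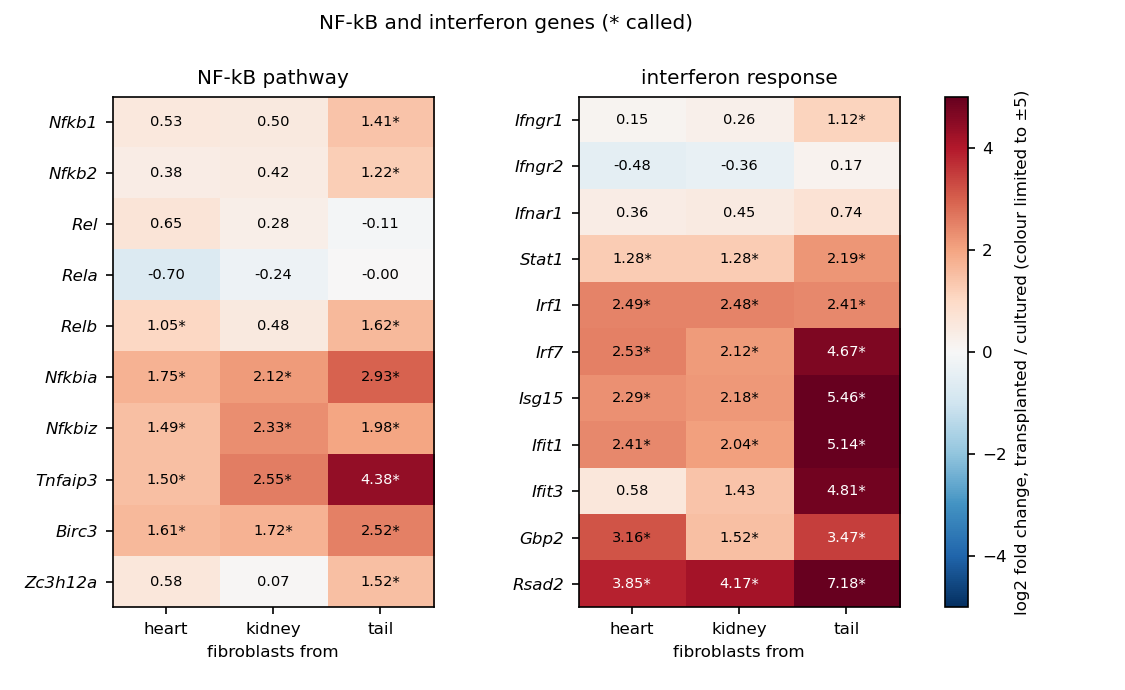
Log2 fold change (transplanted over cultured) of the tested genes of the NF-kB pathway and the interferon response in heart, kidney and tail fibroblasts, printed in each cell, with an asterisk where the gene was called. *Tnfaip3* (4.38), *Isg15* (5.46) and *Irf7* (4.67) have their highest values in tail.

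Markers of other cells were read beside these results. The leukocyte list (12 genes) summed to 94.2 to 104 CPM in HFc and 93.0 to 164 in HFs, 423 to 448 in KFc and 16.1 to 149 in KFs, and 179 to 208 in TFc and 44.8 to 48.7 in TFs. Of its 8 tested genes, *Csf3r*, a receptor gene of neutrophils, was called higher in each organ, 5 were called lower in kidney and in tail, and none was called lower in heart, beside 7.99%, 5.53% and 9.33% of all genes called lower in kidney, tail and heart. The shares of all genes called higher were 14.7%, 11.0% and 18.3%, in the same order. Without KFs replicate 3, 10 genes of the list were tested. Of these, 3 were called higher and 5 lower in kidney, 2 higher and 5 lower in tail, and 1 higher and 0 lower in heart. The shares of all genes then called in either direction were 23.2%, 18.3% and 29.0%. The leukocyte numbers called higher are descriptions, since genes low in culture could enter the test through the transplanted libraries. *Ptprc*, which encodes CD45, was at 3.65 to 4.12 CPM in TFs, 3.73 to 11.7 CPM in HFs and 7.11, 8.65 and 0.241 CPM in KFs after a sort against that protein. The part of leukocytes in the chemokine levels was not tested. The neutrophil markers *S100a8* and *S100a9* were at 0 in all cultured libraries and at 0 to 15 and 0 to 41 counts in transplanted ones, highest in KFs replicate 2.

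Renal markers were also read. The proximal tubule list (10 genes) summed to 22.5 to 25 CPM in HFc, 103 to 111 in KFc and 19.5 to 21.8 in TFc, and to 118 to 1170 in HFs, 60.1 to 124 in KFs and 136 to 318 in TFs. The sums of HFs and TFs lay above their cultured groups, whereas those of KFs and KFc overlapped, with KFs replicates 2 and 3 below each KFc library. Each of the 10 genes was above 3 counts in all transplanted libraries, whereas 5 were at 0 in all HFc libraries, 6 in KFc and 4 in TFc. The 10 called higher in heart and in tail and the 8 in kidney (7 without KFs replicate 3) are a description, since the genes at 0 in culture entered the test through the transplanted libraries, and their fitted folds are not measured sizes. Over all genes tested, 18.3% were called higher in heart, 11.0% in tail and 14.7% in kidney. The loop, distal tubule and collecting duct list (6 genes) summed to at most 0.764 CPM in culture and 12 to 84.6 CPM after transplantation. The defining genes *Kap* and *Slc27a2* were at 0 in each cultured group. HFs replicate 2, with 1170 CPM of tubule markers, was the lowest HFs library for *Cxcl1*, *Cxcl2*, *Cxcl5* and *Cxcl10*, the highest for *Cxcl9* and *Cxcl14* and the middle one for *Cxcl3*, *Cxcl12*, *Cxcl13* and *Cxcl16*. Without HFs replicate 2, 8 members were called in HFs against HFc, beside 25.3% of all genes called in either direction. That count is a description, as it is with all libraries. The part of recipient cells or their RNA in the chemokine levels was not tested.

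Endothelial and mesothelial markers were read in the same way. The endothelial list (8 genes) summed to 39.8 to 42.6 CPM in HFc and 60.8 to 70.7 in HFs, 35.0 to 37.3 in KFc and 25.9 to 48.6 in KFs, and 37.6 to 43.0 in TFc and 44.4 to 49.3 in TFs. Of its genes, 7 were called higher in heart, 5 in kidney and 4 in tail, beside 18.3%, 14.7% and 11.0% of all genes, and 1 was called lower, in kidney (7.99% of all genes), where none was without KFs replicate 3. *Emcn* in HFc and *Tie1*, *Emcn* and *Plvap* in TFc were at 0 in all libraries. Above 3 counts in all libraries were 2 genes in HFc, 5 in KFc and 5 in TFc, against 8 in each transplanted group. The endothelial numbers called higher are thus a description, since genes low in culture could enter the test through the transplanted libraries. The mesothelial list (*Msln*, *Upk3b*, *Lrrn4* and *Wt1*) summed to 148 to 154 CPM in HFc and 3.49 to 8.96 in HFs, to 22.4 to 25.6 in KFc and 41.0 to 50.9 in KFs, and to at most 0.803 CPM in tail cells. In heart *Upk3b* (-6.32 ± 0.42, adjusted p 2.33e-07) and *Lrrn4* (-5.37 ± 0.64, 2.39e-05) were called lower and *Wt1* higher (1.67 ± 0.30, 2.42e-04), beside 9.33% and 18.3% of all genes. In kidney *Upk3b* alone was called, lower (-3.21 ± 0.80, adjusted p 0.00585, and -2.75 without KFs replicate 3), although the sum was higher in KFs, beside 7.99% of all genes. In tail *Msln* and *Wt1* were called higher, beside 11.0% of all genes, from at most 0.0438 CPM over the list in TFc. The part of these cells in the chemokine levels was not tested.

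**Figure D5:**
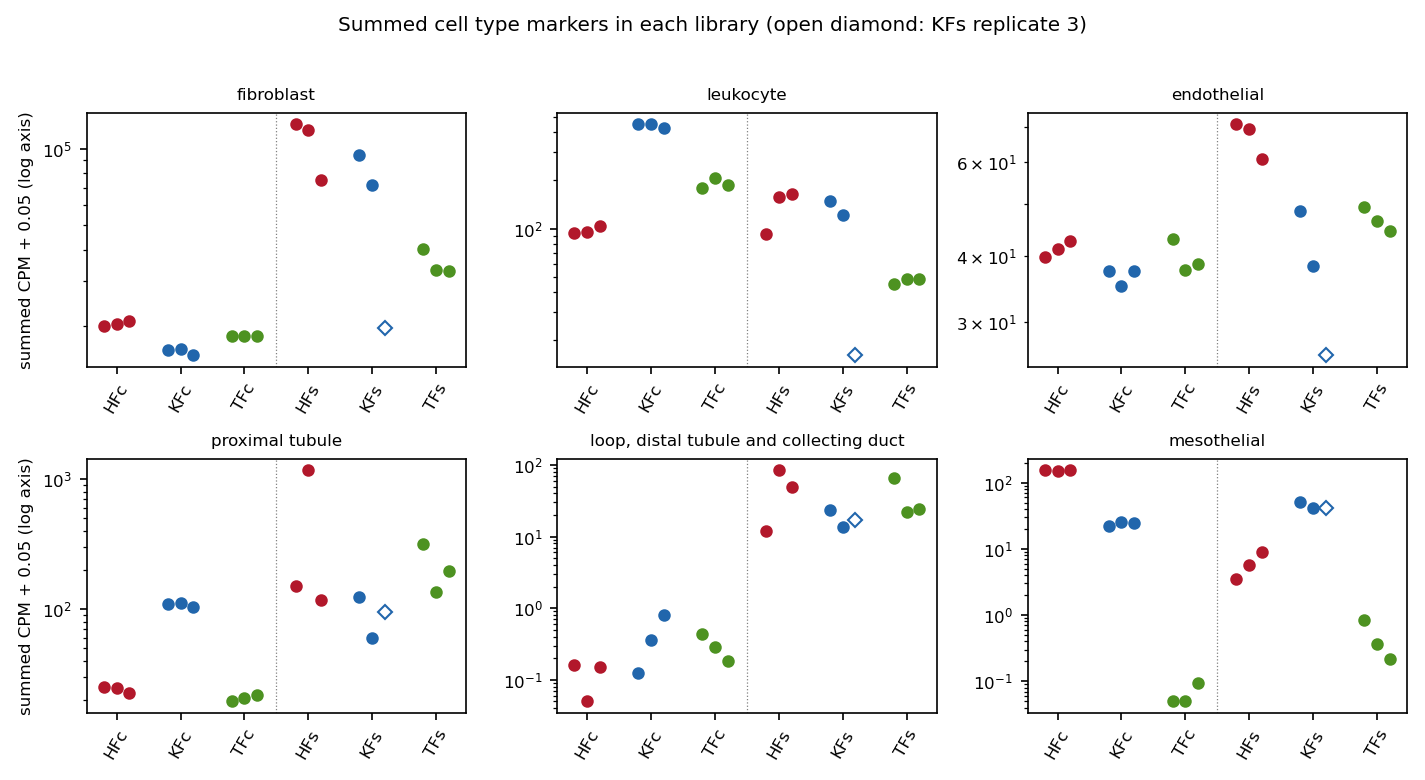
Summed CPM + 0.05 (log axis) of 6 lists of cell type markers in each library, with KFs replicate 3 as an open diamond. The leukocyte sum is 44.8 to 48.7 CPM in TFs against 179 to 208 in TFc, and the proximal tubule sum of HFs replicate 2 is 1170 CPM.

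For each tested member, the 3 other genes with the most similar profile over the 18 libraries were found by the root mean square (RMS) difference of centred log2(CPM + 1) values. Closest to *Cxcl16* was *Atxn7l1* (RMS difference 0.222, where *Cxcl16* itself varied by 0.776), followed by *H2-T23*, a class I histocompatibility gene (0.270), and *Zmynd15* (0.296), which overlaps *Cxcl16* on the other strand. For *Cxcl10* they were *Parp14* (0.368 of 1.79), *F830016B08Rik* (0.403) and *Zbp1* (0.426), a sensor of nucleic acids. *Cxcl2* was closest to *Nfkbia* (0.388 of 1.43), *Nfkbie* (0.434), which encodes a further NF-kB inhibitor, and *Mgarp* (0.453). *Cxcl1* was closest to *Serpina3g* (0.602 of 2.14), which was also the closest to *Cxcl5* (1.08 of 2.78), and *Cxcl9* to *Gm16685* (0.835 of 2.14), with *Gbp2b*, a guanylate-binding protein gene, at 0.882. *Cxcl3* was closest to *Ier3* (0.310 of 0.788), *Cxcl12* to *Ripor3* (0.593 of 1.95) and *Cxcl14* to *Galnt13* (0.942 of 2.47). These values are descriptions, since all libraries enter both profiles.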

How the data were processed

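The authors deposited a gene table of expected counts, which they made by trimming reads, aligning them and running RSEM. The submitters' processing notes name mm9, Bowtie and RSEM, whereas the study's methods name GRCm38, and the annotation release is not given in the sources used here. Expected counts were rounded to whole numbers. Identifiers were matched to GENCODE mouse release 21 (37607 of 38924 found) for symbols, positions and exon lengths, and promoter sequences came from RefSeq (GRCm38.p6).

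Totals ranged from 17927838 to 32245168 counts in 18 libraries, with 0 columns left unused. All 6 groups entered 1 fit in edgeR 4.0.16 (R 4.3.3, limma 3.58.1) with filterByExpr, TMM, glmQLFit and glmQLFTest, and p-values were adjusted by Benjamini-Hochberg over 16577 genes. SE is the log2 fold change divided by the square root of F. A call needed an adjusted p under 0.05 and, between transplanted and cultured cells, also a log2 fold change past 1 or -1. Interaction terms compared responses. Low counts were given as pooled CPM ratios with exact 95% binomial intervals.

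All 10 members were described, with receptor, ligand, protease, NF-kB, interferon and marker lists and the 3 nearest profiles of each tested member. Members, lists and motifs were chosen with earlier results of these data known. Alternatives were other normalizations, filters and thresholds, DESeq2 1.42.0, a replicate block, only the groups compared, and each library left out. Leaving KFs replicate 3 out of comparisons that do not use KFs was added after seeing the data. Tables and figures used Python 3.11.15, numpy 2.4.6, pandas 2.3.3 and matplotlib 3.10.9.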

Additional observations from a re-analysis of the deposited data

Results flagged for a closer look

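For 5 members the change on transplantation was called as different between organs by the interaction test, with *Cxcl10* among them as a description only. Heart against tail, *Cxcl14* differed by 3.52 and *Cxcl10* by -5.86 on the log2 scale. Kidney against tail, *Cxcl1* differed by 2.0, *Cxcl5* by 3.95, *Cxcl10* by -6.34, *Cxcl14* by -2.22 and *Cxcl16* by -1.03. Heart against kidney, *Cxcl5* differed by -3.40, *Cxcl14* by 5.74 and *Cxcl16* by 1.07. Both *Cxcl10* values rest on 1 count over TFc and moved to -7.64 and -8.18 without TFc replicate 3, and the second was -6.85 without KFs replicate 3, so their size is not a measured bound. The *Cxcl5* values were 4.61 and -4.06 without KFc replicate 1 and 3.35 and -2.76 without KFs replicate 2, each called. Groups of 3 libraries were not tested for single libraries that stand apart.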

How the results depend on the processing

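Of 959 member values under other settings, 919 stayed on their side of the threshold, 26 lost and 14 gained a call, and of 873 with 1 library left out, 828, 35 and 10. None of the 1042 values of called members changed sign, and 35 of the 790 values of members not called did. With only the groups compared in the fit, the members called were 5 of 5 tested for HFc against TFc (62.4% of all genes), 2 of 9 for KFs against TFs (7.47%) and 1 of 9 for HFs against KFs (5.75%), where fewer samples set both the filter and the spread. At an adjusted p under 0.01, they were 2 for HFc against KFc (18.3% of all genes) and 3 for HFs against TFs (13.5%). They were 1 for the heart and tail responses (11.5%) and 3 for the kidney and tail responses (4.63%). With 1 library left out the number called was 8 to 8 in HFs against HFc and in KFs against KFc, 8 to 9 in TFs against TFc, 2 to 4 in HFc against TFc, 5 to 6 in KFc against TFc, 2 to 5 in HFc against KFc, 3 to 7 in HFs against TFs, 5 to 5 in KFs against TFs and 3 to 5 in HFs against KFs, and 1 to 3, 3 to 5 and 3 to 4 for heart against tail, kidney against tail and heart against kidney responses. Same-numbered libraries were not shown to be paired (mean correlation of deviations -0.100 to 0.023). With a replicate block, 5 members were called in HFs against TFs (21.9% of all genes) and 3 in HFs against KFs (31.3%), *Cxcl3* being lost in both. The counts of the other comparisons were as without the block. Scaling by library size alone moved the median of all genes to -0.25 in HFs against TFs and in HFs against KFs, and *Cxcl16* in HFs against TFs was then 0.31 (adjusted p 0.104, edgeR). Depth limits *Cxcl2*, *Cxcl9*, *Cxcl10* and *Cxcl13* in culture, where single counts set the ratios.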
